A study of Mus musculus with 200 samples.

Results

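A set of 10 glutathione S-transferase genes was followed in single whole mouse embryos at E11.5, from which membranes and placenta had been removed. They were *Gstz1*, *Gstm1*, *Gstm5*, *Gstm7*, *Gsta4*, *Gstp1*, *Gstt1*, *Gstt2*, *Gsto1* and *Mgst1*, taken by symbol from the 22033 genes of the tables. They had been picked with the allele fractions, the levels by genotype, the relation to somite number and the difference between F1 and N2 embryos already known, so for these 4 measures the values are a description and carry no test. The 2 inbred strains were C57BL/6J (B6) and CAST/EiJ (Cast). The F1 embryos came from both directions of the cross, 8 from B6 females and Cast males (B6 × Cast, 2 litters) and 8 from Cast females and B6 males (Cast × B6, 2 litters). They also differed in stage, with 48 to 63 somites (median 50) in 7 staged B6 × Cast and 41 to 48 somites (median 44.5) in 6 staged Cast × B6 embryos, so direction of cross and stage cannot be told apart between the F1 groups. The N2 embryos came from backcrosses to B6, 89 with a B6 mother and an F1 father (17 litters) and 65 with an F1 mother and a B6 father (12 litters). All F1 parents came from B6 females and Cast males, so every N2 embryo was either B6/B6 or B6/Cast at an autosomal gene, and none carried 2 Cast alleles. The labels name no treatment and no engineered allele. Nothing was sorted, so that fewer cells of a type and less RNA per cell cannot be told apart in any value below.

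Glutathione S-transferases join the tripeptide glutathione to electrophilic compounds, such as products of lipid peroxidation and many drugs, and the conjugates are then exported from the cell. The soluble enzymes work as dimers and fall into classes named by Greek letters, while *Mgst1* encodes a membrane-bound enzyme of the unrelated MAPEG family. Many of these genes are regulated by the transcription factor NRF2 (*Nfe2l2*) through antioxidant response elements, and the adult liver is a major site of their expression.

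The core of the antioxidant response element, TGACNNNGC, was searched on both strands from 250 bases before to 50 bases after each RefSeq start (GRCm38.p6), because it is the sequence most often tied to this family. The table held a promoter for 8 of the 10 genes, 12 promoters in all, and *Gsta4* and *Gstt2* had none listed. The core occurred in 3 of these 12 promoters, 25% of them, against 12.4% of all 32851 promoters of the same length. Capitals below mark the core, 5′ to 3′ along the strand that holds it. It begins at position -42 from the start of *Gstm5* and at position -129 from a listed start of *Gstm7*, on the strand of the gene. For *Mgst1* it lies on the opposite strand, and its end farther from a listed start is at position -56. *Gstm7* and *Mgst1* each had another listed start, whose promoter held no core. The windows lie at chr3:107895804-107895828, chr3:107931727-107931751 and chr6:138140463-138140487.
Gstm5: ccgcccacTGACCACGCggagggcg
Gstm7: tgaagaccTGACAAAGCgaagccaa
Mgst1: ccgcctccTGACCGTGCcaagcccc

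RNA was sequenced by 3SEQ, which reads the 3′ ends of transcripts. Between 15703888 and 38234229 reads per F1 embryo and between 245220 and 5370322 per N2 embryo were counted on genes, and counts were divided by that total to give RPM, in which every library is scaled to the same total. At the median N2 depth, 1 RPM was 2.30 reads. The N2 libraries ran in 14 lanes, called A to N here, of which 8 held embryos of B6 mothers only, 5 held embryos of F1 mothers only, and lane M held 1 and 8 of them. Lanes A to G were on the first flowcell. The F1 libraries came from other runs, 2 per embryo. Cast × B6 litter 2 had HiSeq runs only, and the other F1 litters had a GAIIx and a HiSeq run. F1 reads from the HiSeq had been trimmed to GAIIx length, whereas N2 reads, all from the HiSeq, lost only poly(A) stretches. Sequencing and generation therefore cannot be told apart between F1 and N2 embryos. Of 6 placental trophoblast markers, 4 had no read and the sum never exceeded 3.99 RPM in an N2 embryo. The 5 visceral yolk sac markers all had reads, and their sum had a median of 2.83 RPM and reached 50.4 RPM. A mean of 5 RPM was reached by 5 of 6 fetal hepatocyte and 5 of 5 erythroid markers. It was also reached by 2 of 3 lens, 3 of 3 neural and 4 of 4 muscle and heart markers. Reads that aligned nearly as well elsewhere had been discarded, so that counts of close copies (the *Gstm* genes, *Gstp1* with *Gstp2*, *Gstt1* with *Gstt2*) are uncertain. *Gstp2*, *Gsta1* and *Gsta2* were listed at 0 in every N2 embryo.

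*Gstz1* encodes the zeta-class enzyme, also known as maleylacetoacetate isomerase, which acts near the end of tyrosine breakdown (chr12:88488668-88505673, plus strand, mm9, as are all gene positions below). In the B6 × Cast embryos its level ran from 139 to 151 RPM with a median of 145. In the Cast × B6 embryos it ran from 99.5 to 205 RPM with a median of 124. The Cast × B6 range enclosed the other one, and its litters did not overlap, with 99.5 to 114 RPM in litter 1 and 134 to 205 RPM in litter 2. Litter 1 was also the one with fewer somites, and only litter 1 had a GAIIx run, so litter, stage and run cannot be told apart. The B6 allele fraction (BAF), the share of allele-informative reads that carry the B6 base, was 0.246 over the 16 F1 embryos (25122 votes, Wilson 95% interval 0.241 to 0.252). Every F1 embryo lay between 0.219 and 0.271, and both directions of the cross lay in that narrow band. Among 9084 genes with enough votes, 2.03% had an F1 BAF at or below this one.

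In N2 embryos heterozygous at the gene, the *Gstz1* BAF was 0.138 (12746 votes, interval 0.132 to 0.144). The 76 of these embryos with at least 20 votes ranged from 0.0747 to 0.240 with a median of 0.143, so all of them lay below an equal share, and the 3 highest, all in lane L, reached the F1 band. The BAF was thus lower by 0.108 than in the F1 embryos, and 89.5% of genes had a smaller gap in either direction. It was 0.130 in lanes A to I and 0.166 in lanes J to N, both below the lowest F1 embryo. In B6/B6 embryos, where no Cast allele is present, 0.416% of *Gstz1* votes were for Cast.

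**Figure D1:**
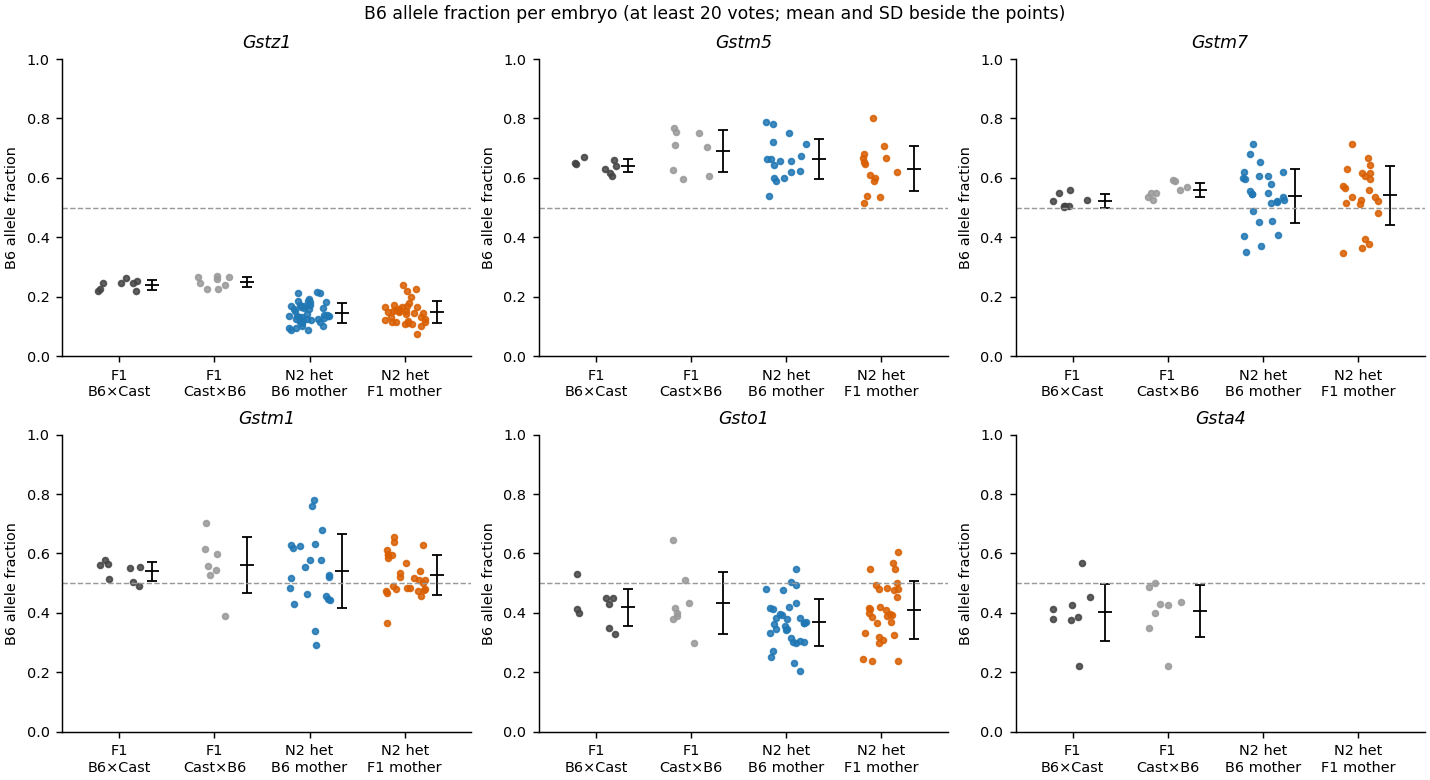
B6 allele fraction per embryo (y axis, from 0 to 1) for 6 transferase genes in F1 embryos of both crosses (grey) and in heterozygous N2 embryos by mother (blue and orange), embryos with at least 20 votes only, with mean and SD beside the points and a dashed line at an equal share. *Gstz1* lies between 0.219 and 0.271 in the F1 embryos and mostly lower in the N2 embryos, *Gstm5* lies above the line in every embryo shown, and *Gsta4* has no N2 embryo with enough votes.

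The level of *Gstz1* in N2 embryos followed the genotype at the gene. Heterozygous embryos had 126 ± 24.9 RPM (SD, n = 79) and B6/B6 embryos 40.9 ± 12.6 RPM (n = 75), a ratio of 3.09. Heterozygous embryos were higher in 14 of 14 lanes, by 2.46 to 4.29 times, and in all 14 lanes the lowest heterozygous embryo was above the highest B6/B6 embryo. Over all lanes the groups did overlap, since heterozygous embryos began at 65.2 RPM and B6/B6 embryos reached 94.4 RPM. With lane as a term on the log2(RPM + 1) scale the ratio was 3.22 (95% interval 3.02 to 3.43). Of 9733 autosomal genes that averaged 5 RPM or more, 18 including *Gstz1* had a ratio at least as high, and 68 exceeded 2. The middle 90% of genes had ratios between 0.740 and 1.41.

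Splitting the mean level by the BAF gives a level per allele. In F1 embryos the B6 allele of *Gstz1* accounted for 34.6 RPM and the Cast allele for 106 RPM. In heterozygous N2 embryos the B6 allele accounted for 17.4 RPM and the Cast allele for 109 RPM. Each B6 allele of a B6/B6 embryo, as the mean divided by 2, accounted for 20.4 RPM. The Cast allele was therefore at a like level in both generations, while the B6 allele of the F1 embryos was above that of the N2 embryos. F1 and N2 libraries also differed in sequencing run and read trimming, which cannot be told apart from generation in this contrast or in the BAF. The BAF predicted from the N2 levels alone, as the B6/B6 mean per allele over the heterozygous mean, was 0.162.

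**Figure D2:**
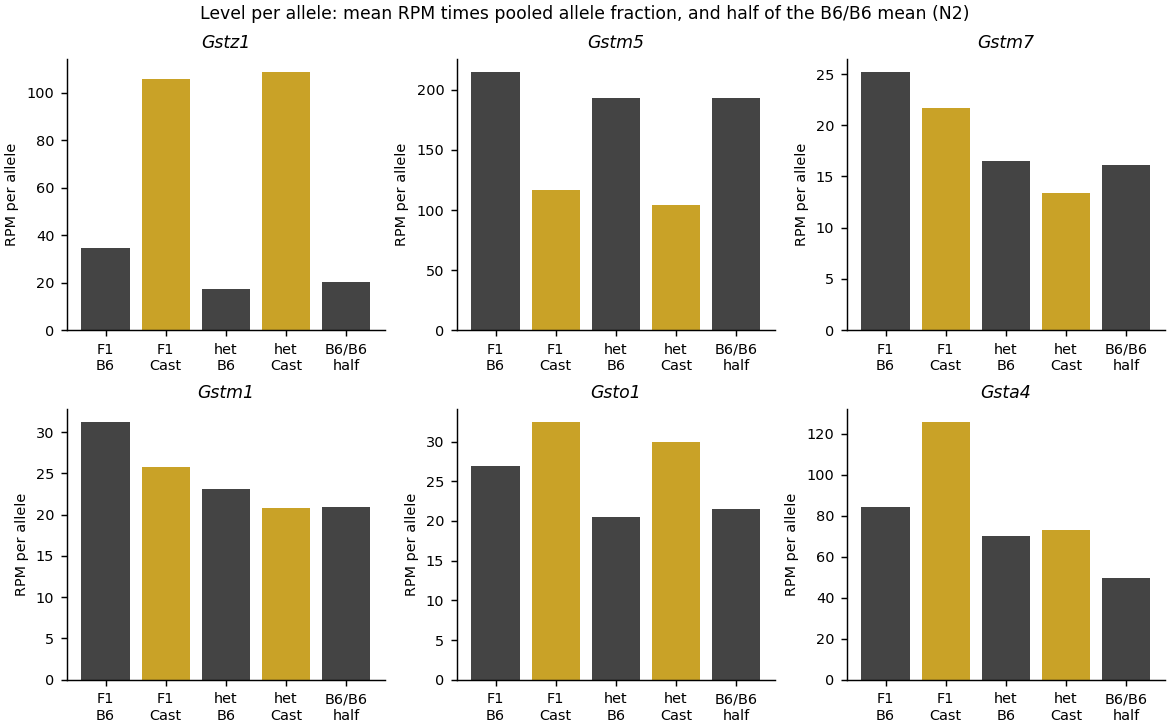
Level per allele in RPM (y axis, from 0) for 6 transferase genes, as mean RPM times pooled allele fraction for F1 and heterozygous N2 embryos and as the mean divided by 2 for B6/B6 N2 embryos, with B6 alleles in grey and Cast alleles in gold. For *Gstz1* the Cast bars stand at 106 and 109 RPM and the B6 bars between 17.4 and 34.6 RPM, and for *Gstm5* the B6 bars stand above the Cast bars.

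The mu class was represented by 3 genes of a cluster on chromosome 3: *Gstm5* at chr3:107698739-107701604 (plus strand), *Gstm7* at chr3:107729252-107734735 (minus) and *Gstm1* at chr3:107815173-107820891 (minus). Their transcription starts lie 35.996 kb (*Gstm5* to *Gstm7*) and 86.156 kb (*Gstm7* to *Gstm1*) apart, and all 153 embryos with calls at the 3 genes had the same genotype at each, so the genotype of 1 cannot be told apart from that of the others. Mu-class enzymes conjugate many electrophiles of foreign and endogenous origin.

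*Gstm5* had 290 to 363 RPM (median 343) in B6 × Cast embryos and 284 to 358 RPM (median 325) in Cast × B6 embryos, and these ranges overlapped almost fully. Its BAF was 0.649 in F1 embryos (10408 votes, interval 0.639 to 0.658) and 0.650 in heterozygous N2 embryos (2678 votes, interval 0.632 to 0.668). These pooled values weight embryos by votes, and the intervals cover counting error only. The mean per F1 litter was 0.649 and 0.635 in B6 × Cast and 0.645 and 0.734 in Cast × B6. The near-equal F1 and N2 values therefore depend on the pooling. B6 votes outnumbered Cast votes in 16 of 16 F1 embryos and in 31 of 31 N2 embryos with at least 20 votes. All but 49 of the N2 votes came from lanes A to I. The level went the same way, with 297 ± 139 RPM in heterozygous (SD, n = 76) and 387 ± 141 RPM in B6/B6 embryos (n = 77), a ratio of 0.768. Heterozygous embryos were lower in 12 of 14 lanes, without overlap in 3, and with lane as a term the ratio was 0.857 (interval 0.785 to 0.936). Per allele the B6 copy of *Gstm5* stood at 215 RPM in F1, 193 RPM in heterozygous and 193 RPM in B6/B6 embryos, and the Cast copy at 116 and 104 RPM. The N2 values mix unlike lanes, since 33 heterozygous but 22 B6/B6 embryos were in lanes J to N, where the level was lower. In lanes A to I, the source of most votes, the means were 407 and 460 RPM, a ratio of 0.883. The equal N2 values of the B6 copy therefore depend on the mix of lanes. The predicted BAF was 0.651 from the means and 0.583 within lanes.

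*Gstm7* had 40.2 to 72.6 RPM (median 52.1) in B6 × Cast and 32.9 to 64.4 RPM (median 38.8) in Cast × B6 embryos. Its BAF was 0.537 in F1 (7339 votes, interval 0.5258 to 0.549) and 0.552 in heterozygous N2 embryos (2346 votes, interval 0.532 to 0.572). All 16 F1 embryos were above an equal share, from 0.503 to 0.593, whereas 36 N2 embryos were above and 12 below it. Heterozygous embryos had 29.9 ± 15.5 RPM (SD, n = 76) and B6/B6 embryos 32.2 ± 14.2 RPM (n = 77). This difference was smaller than the spread between embryos, and the ratio of 0.931 was 1.04 in lanes A to I and 0.808 in lanes J to N.

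*Gstm1* had 53.0 to 103 RPM (median 68.4) in B6 × Cast and 18.3 to 70.9 RPM (median 39.9) in Cast × B6 embryos, with overlapping ranges. The BAF was 0.549 in F1 (3004 votes, interval 0.531 to 0.566) and 0.527 in heterozygous N2 embryos (4004 votes, interval 0.512 to 0.543). Heterozygous embryos had 43.9 ± 38.4 RPM (SD, n = 76) and B6/B6 embryos 41.8 ± 35.3 RPM (n = 78), and the ratio within lanes was 1.12 (interval 0.959 to 1.32). The genotypes thus differed by less than the spread between embryos, and the ratio of 1.05 over all embryos was 1.295 in lanes A to I and 0.7395 in lanes J to N.

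*Gsta4* encodes an alpha-class enzyme known for conjugating 4-hydroxynonenal, a product of lipid peroxidation (chr9:78039773-78057155, plus strand). It had 177 to 226 RPM (median 209) in B6 × Cast and 186 to 248 RPM (median 209) in Cast × B6 embryos. Its BAF was 0.401 in F1 embryos, on only 721 votes (interval 0.366 to 0.437), with 14 of 16 embryos below an equal share. In heterozygous N2 embryos it was 0.489 on 137 votes, and the interval of 0.407 to 0.572 covers both an equal share and part of the F1 interval. The total level gave more precision: heterozygous embryos had 143 ± 46.1 RPM (SD, n = 84) and B6/B6 embryos 99.3 ± 32.01 RPM (n = 70), a ratio of 1.44. Heterozygous embryos were higher in 14 of 14 lanes, 5 of them without overlap, and the ratio within lanes was 1.39 (interval 1.30 to 1.498). The predicted BAF was 0.346, below the value read from the N2 votes and its interval.

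**Figure D3:**
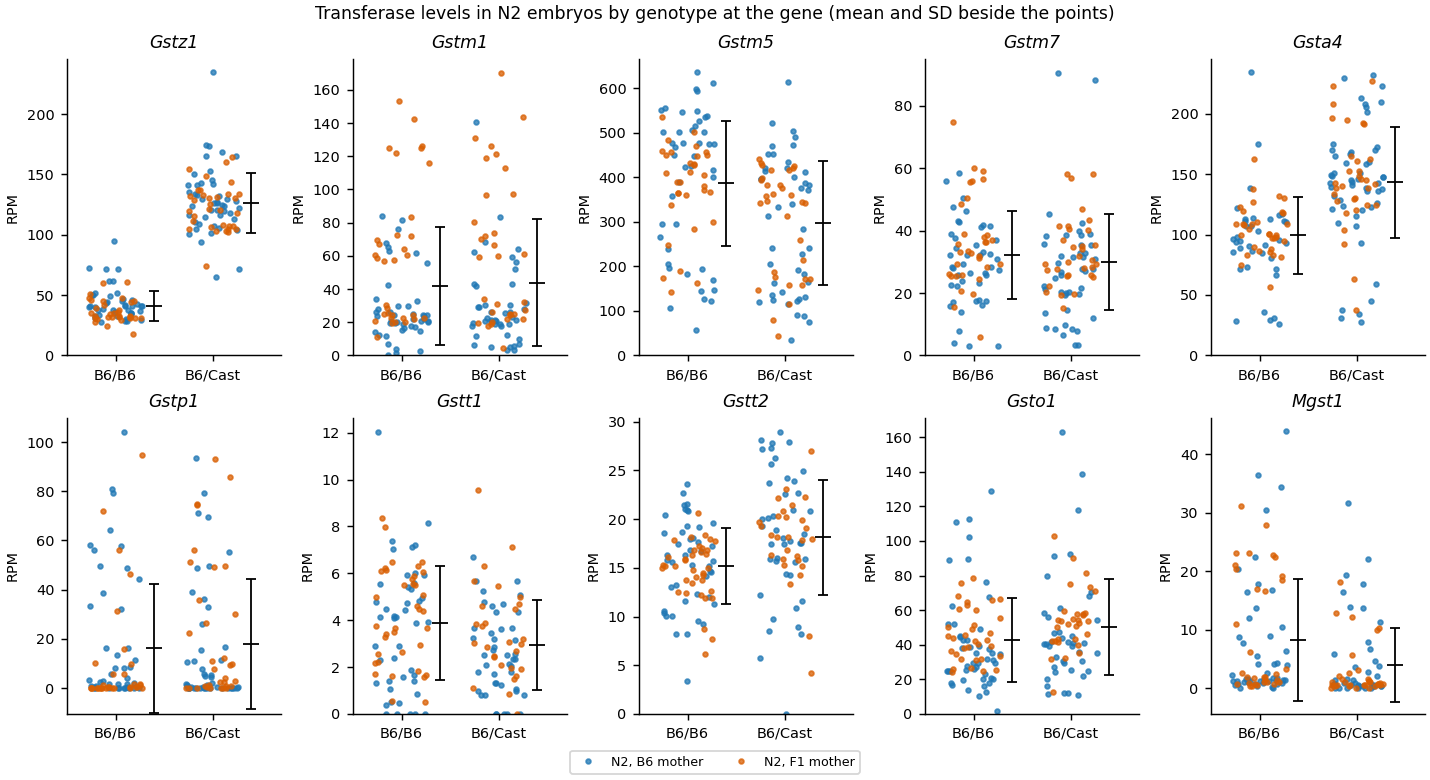
RPM (y axis) of the 10 transferase genes in N2 embryos that were B6/B6 or B6/Cast at the gene, each point 1 embryo, blue for B6 mothers and orange for F1 mothers, with mean and SD beside the points. For *Gstz1* the B6/Cast embryos (mean 126 RPM) are almost all above the B6/B6 embryos (mean 40.9 RPM), *Gsta4* shows a smaller shift with wide overlap, and the clouds of *Gstm1*, *Gstm7* and *Gstp1* lie side by side.

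*Gsto1* encodes an omega-class enzyme, which carries a cysteine in place of the tyrosine or serine of other classes and reduces dehydroascorbate (chr19:47929460-47939280, plus strand). B6 × Cast embryos had 47.6 to 61.6 RPM (median 54.7) and Cast × B6 embryos 43.4 to 95.6 RPM (median 63.3). The BAF was 0.453 in F1 embryos (13307 votes, interval 0.444 to 0.461), and single embryos ranged from 0.297 to 0.645, wider than the band of *Gstz1*. It was 0.406 in heterozygous N2 embryos (4201 votes, interval 0.391 to 0.421). The mean per F1 litter was 0.471 and 0.388 in B6 × Cast and 0.467 and 0.401 in Cast × B6. The pooled F1 value therefore depends on the weight of each litter. Heterozygous embryos had 50.5 ± 27.7 RPM (SD, n = 72) and B6/B6 embryos 43.0 ± 24.3 RPM (n = 82), and were higher in 12 of 14 lanes. The ratio was 1.17 over all embryos and 1.26 within lanes (interval 1.13 to 1.41), and it was 1.30 in lanes A to I but 1.03 in lanes J to N.

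The theta-class genes *Gstt1* (chr10:75246558-75261329, minus strand) and *Gstt2* (chr10:75294590-75297626, minus strand) lie side by side and had the same genotype in all 154 embryos. Theta enzymes are known for acting on small halogenated compounds. *Gstt1* had 5.46 to 10.9 RPM (median 7.11) in B6 × Cast and 4.90 to 6.74 RPM (median 6.06) in Cast × B6 embryos, and *Gstt2* had 24.3 to 27.6 RPM (median 26.3) and 13.3 to 28.8 RPM (median 20.6). In the Cast × B6 litters *Gstt2* did not overlap, with means of 16.3 ± 2.23 RPM in litter 1 and 24.5 ± 2.89 RPM in litter 2 (SD, n = 4 each). As for *Gstz1*, litter, stage and run cannot be told apart in this gap. No vote was recorded for *Gstt1* and 16 F1 votes for *Gstt2*, so their allele fractions could not be read. By genotype they moved in opposite ways: *Gstt1* had 2.95 ± 1.92 RPM in heterozygous (SD, n = 72) and 3.89 ± 2.43 RPM in B6/B6 embryos (n = 82). The corresponding means of *Gstt2* were 18.2 ± 5.90 and 15.2 ± 3.90 RPM. The *Gstt1* ratio of 0.757 became 0.886 within lanes (interval 0.769 to 1.02), and that of *Gstt2*, 1.197, became 1.14 (interval 1.02 to 1.28). The *Gstt2* ratio was 1.29 in lanes A to I and 0.991 in lanes J to N.

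*Gstp1*, the pi-class gene (chr19:4035411-4037921, minus strand), encodes an enzyme that also binds signalling kinases. B6 × Cast embryos had 12.1 to 65.1 RPM (median 20.3) and Cast × B6 embryos 6.42 to 79.3 RPM (median 41.5). The Cast × B6 litters did not overlap, with 53.1 to 79.3 RPM in litter 1 and 6.42 to 29.9 RPM in litter 2, and the median lay between them. Litter, stage and run cannot be told apart in this gap either. In the N2 embryos the median was 2.23 RPM, the highest 104 RPM, and 46 of 154 embryos had no read. The F1 BAF was 0.646 on 359 votes (interval 0.595 to 0.694), and heterozygous N2 embryos gave only 9 votes. Heterozygous and B6/B6 embryos had 17.9 ± 26.5 RPM (SD, n = 79) and 16.2 ± 26.2 RPM (n = 75), and no difference was detectable beside this spread. The ratio was 1.11 over all embryos, 0.988 in lanes A to I and 0.525 in lanes J to N. *Gstp1* and *Gsto1* share chromosome 19 but differed in genotype in 33 of 154 embryos.

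*Mgst1* (chr6:138088837-138105276, plus strand) encodes a microsomal enzyme that conjugates glutathione and reduces lipid hydroperoxides. It had 0.931 to 2.65 RPM (median 1.55) in B6 × Cast and 0.927 to 3.22 RPM (median 1.89) in Cast × B6 embryos, and the ranges of both crosses overlapped. Its BAF was 0.588 in F1 (182 votes, interval 0.515 to 0.657) and 0.615 in heterozygous N2 embryos (299 votes, interval 0.559 to 0.669). Heterozygous embryos had 3.97 ± 6.38 RPM (SD, n = 73) and B6/B6 embryos 8.22 ± 10.4 RPM (n = 81), a ratio of 0.483. Heterozygous embryos were lower in 13 of 14 lanes, but never without overlap, and with lane as a term the ratio was 0.688 (interval 0.591 to 0.800). The predicted BAF was 1.03 from the means, above the largest possible share, and 0.727 within lanes.

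The ratios of heterozygous to B6/B6 embryos were also taken within each backcross, where the heterozygous embryos had received the Cast allele from an F1 father or from an F1 mother. For *Gstz1* the ratio was 2.93 under B6 mothers and 3.33 under F1 mothers, and for *Gsta4* it was 1.495 and 1.40. For *Gstm5* it was 0.751 and 0.794, and for *Mgst1* 0.641 and 0.313. These 4 genes thus kept the direction in both backcrosses, as did *Gsto1* (1.17 and 1.18), *Gstt2* (1.19 and 1.20), *Gstt1* (0.7104 and 0.837), *Gstm7* (0.940 and 0.918) and *Gstm1* (1.05 in both). The ratio of *Gstp1* was 0.767 and 1.95, on opposite sides of 1. These ratios mix lanes. With lane as a term, those of *Mgst1* were 0.717 and 0.664, and those of *Gsto1* were 1.36 and 1.11. For *Gstp1* they were then 0.880 (interval 0.538 to 1.44) and 1.26 (interval 0.735 to 2.16). The sizes of these gaps between the backcrosses therefore depend on the mix of lanes.

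Set beside the whole table, 3 of the 7 transferases with enough votes passed the threshold used for allele differences (*Gstz1* and *Gsto1* towards Cast, *Gstm5* towards B6), where 18.9% of 9084 genes did, 9.17% towards Cast and 9.7% towards B6. For the genotype at the gene, tested on levels from which lane, sex, stage and 15 principal components had been removed, 7 of 9 passed, with *Gstz1*, *Gsta4*, *Gstt2* and *Gsto1* higher and *Gstm5*, *Gstm7* and *Mgst1* lower in heterozygous embryos, where 29.2% of 9733 genes did, 15% higher and 14.3% lower. Scaling by TMM in place of total reads left each ratio on the same side of 1. With F1 embryos only, *Gstz1* alone of 8 passed for alleles, and with Bonferroni adjustment *Gstz1*, *Gstm5* and *Gsta4* passed for genotype. Since the set was chosen on these measures, the counts describe the choice.

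The mother's genotype was not part of that choice and could be tested. *Gstm1* had 0 to 141 RPM (median 22.1) in embryos of B6 mothers and 4.74 to 170.1 RPM (median 58.5) in embryos of F1 mothers. The ranges overlapped almost fully, but the means were 29.4 ± 23.4 RPM (SD, n = 89) and 61.3 ± 43.4 RPM (n = 65). *Gstm1* was the only transferase of 9 tested to pass the Mann-Whitney U test, two-sided (Bonferroni-adjusted p = 0.00338), where 5.03% of 9733 genes passed and 4.28% were higher with an F1 mother. edgeR's quasi-likelihood test gave a log2 difference of 1.11 (Benjamini-Hochberg-adjusted p = 6.92e-07, with 16.8% of genes passing) and DESeq2 1.10 (adjusted p = 2.63e-08, with 18.6% passing). The other 8 tested had an adjusted p of 1.

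Among them, *Gsto1* had 44.2 ± 31.04 RPM under B6 and 49.7 ± 17.0 RPM under F1 mothers (SD, n = 89 and 65), with medians of 35.7 and 49.2 RPM. Its unadjusted Mann-Whitney p was 0.000795, it passed only with Benjamini-Hochberg adjustment (adjusted p = 0.00452, with 21.3% of genes passing), and in lanes K to N the order turned, with means of 79.2 and 64.2 RPM. *Gstm7* had 28.4 ± 15.5 and 34.7 ± 12.9 RPM, with an unadjusted p of 0.00614 in the same test. The means of *Gsto1*, *Gstm7* and the remaining 6 all differed by less than their spread. Of these 6, *Gstz1* had the lowest unadjusted p in that test (0.239). *Gstz1* had 87.5 ± 48.0 and 80.7 ± 46.0 RPM. *Gstm5* had 345 ± 165 and 336 ± 118 RPM, and *Gsta4* had 122 ± 50.6 and 125 ± 38.5 RPM. *Gstp1* had 17.5 ± 26.2 and 16.5 ± 26.5 RPM, *Gstt2* 16.9 ± 5.86 and 16.1 ± 3.96 RPM, and *Mgst1* 6.26 ± 9.35 and 6.15 ± 8.51 RPM. *Gstt1*, which averaged under 5 RPM, was not tested and had 3.12 ± 2.33 and 3.90 ± 2.07 RPM. Parts of the design held larger gaps, none of them called. Within the second flowcell *Mgst1* had means of 8.98 and 17.3 RPM under B6 and F1 mothers, but 17.1 and 17.3 RPM in lanes K to N. *Gstm5* had means of 464 and 404 RPM in lanes A to I, but 193 and 182 RPM in lanes K to N.

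Mother and lane were nearly the same split, and the *Gstm1* difference was present in some parts of the design and not in others. The high embryos of F1 mothers were those of lanes D, E and G, with lane medians of 80.1, 70.1 and 125 RPM, whereas lanes C, L and M, also with F1 mothers, had 22.4, 25.8 and 22.7 RPM. Lane F, with B6 mothers only, had 64.3 RPM, and the other lanes of B6 mothers lay between 4.08 and 28.1 RPM. Within the first flowcell the means were 36.1 and 76.3 RPM (Mann-Whitney, unadjusted p = 3.06e-05, Bonferroni-adjusted p = 0.298, with 2.18% of genes passing), and within the second 25.9 and 27.5 RPM (adjusted p = 1, with 0.247% passing). The share of pairs in which the embryo of the F1 mother was the higher one was 0.741 over all embryos, 0.786 within the first flowcell and 0.592 within the second, so the difference was as large in the first flowcell although it was not called there. In lane M the single embryo of a B6 mother had 43.0 RPM and the 8 of F1 mothers 17.7 to 60.2 RPM (median 21.5). Over litter means the unadjusted p was 0.0380 (adjusted p = 1, Mann-Whitney), and limma voom with lane as a random block gave a log2 difference of 0.44 (adjusted p = 0.564). With these 2 methods 0 of 9733 genes passed, though 1279 and 1192 had an unadjusted p under 0.05. Hepatocyte markers summed to 868 ± 407 RPM under B6 and 887 ± 315 RPM under F1 mothers (SD, same embryos), and erythroid markers to 76623 ± 29108 and 81674 ± 37806 RPM. Their part in the *Gstm1* difference was not tested.

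**Figure D4:**
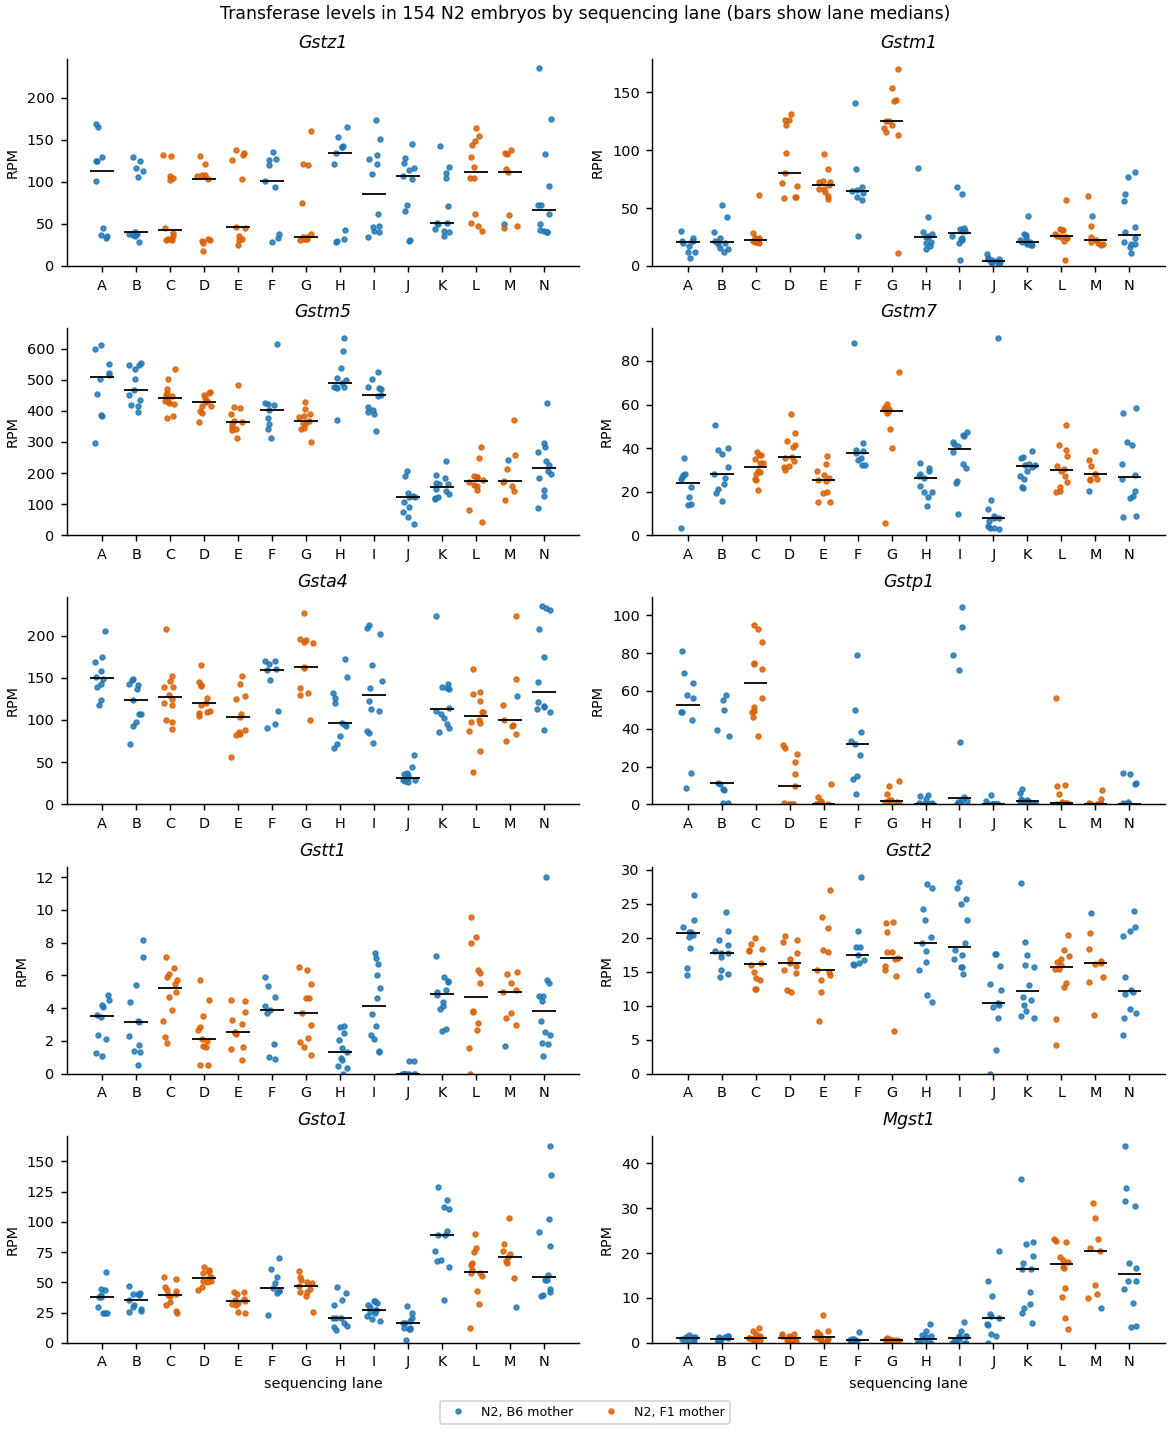
RPM (y axis) of the 10 transferase genes in 154 N2 embryos by sequencing lane (x axis, A to N), each point 1 embryo, blue for B6 mothers and orange for F1 mothers, with black bars at the lane medians. *Gstm5* is lower and *Mgst1* higher from lane J on, *Gstm1* is high in lanes D to G, *Gstp1* is high in a few lanes only, and *Gstz1* shows 2 bands in every lane.

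The level of several transferases differed between lanes. The median of *Gstm5* was 366 to 509 RPM in lanes A to I and 122 to 217 RPM in lanes J to N, and these lane medians did not overlap. That of *Mgst1* went the other way, from 0.554 to 1.28 RPM in lanes A to I and from 5.51 to 20.4 RPM in lanes J to N. The cut between lanes I and J was made after the data had been seen. It is not the cut between flowcells, since lanes H and I were on the second flowcell as well. The gaps of *Gstm5* and *Mgst1* therefore describe where the cut was placed, and how many genes have such a gap was not counted. *Gsto1* had lane medians of 54.1 to 89.3 RPM in lanes K to N and 20.4 to 53.8 RPM in lanes A to I, and lane J, at 16.0 RPM, had the lowest median of all. Lane accounted for 79.01% of the rank variance of *Gstm5*, 68.2% for *Mgst1*, 66.2% for *Gsto1* and 63.2% for *Gstm1*. For *Gstz1* it accounted for 10.5%, beside a median of 59.4% over genes. Litter, taken in place of lane, accounted for 67.01% for *Gstm5*, 68.7% for *Mgst1*, 68.97% for *Gsto1* and 59.4% for *Gstm1*. Its share was 19.7% for *Gstz1*, beside a median of 59.8% over genes. Embryos of a litter often shared a lane, so lane and litter cannot be told apart in these shares. The F1 medians lay between both sets of lanes for *Gstm5* and nearer to lanes A to I for *Mgst1*. Between these lane sets hepatocyte markers had medians of 877 (A to I) and 731 RPM (J to N) neural markers 772 and 987 RPM, and visceral yolk sac markers 2.08 RPM (0 to 50.4) and 4.86 RPM (1.63 to 44.7). Their part in these differences was not tested.

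Once lane was removed from the ranks, the transferases that varied together over the 154 embryos were *Gstm1* with *Gstm7* (rho = 0.49), *Gstt1* with *Gsto1* (0.45), *Gstt1* with *Gstm7* (0.39), *Gstm1* with *Gstt2* (0.32), *Gstm7* with *Gsto1* (0.31) and *Gstm5* with *Gstm7* (0.30). These points share library depth, and for the *Gstm* genes also genotype and similar sequence. *Gstz1* had no rho above 0.19 with any other transferase.

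Parent-of-origin dependence of the BAF, the other contrast outside the choice, was not called for any transferase. In F1 embryos 5 genes had at least 20 votes in every embryo, and limma called none (1.67% of 5628 genes were called), with 1 of 5 at an unadjusted p under 0.05. That gene was *Gstm7*, with a BAF of 0.503 to 0.560 (median 0.515) in B6 × Cast and 0.5259 to 0.593 (median 0.555) in Cast × B6 embryos. These ranges overlapped, and the log2 ratio of B6 to Cast votes was higher by 0.21 (SE 0.07) with a Cast mother (limma, adjusted p = 0.181). The exact rank-sum test did not call it either (adjusted p = 0.185). *Gstm5* had a difference of 0.34 (SE 0.17, adjusted p = 0.372, limma), *Gstz1* one of 0.08 (SE 0.08, adjusted p = 0.695), *Gsto1* one of 0.09 (SE 0.24) and *Gsta4* one of 0.01 (SE 0.27). Between the litters nearest in somite number *Gstm5* differed by 0.67 (limma, adjusted p = 0.0741), with 0 of 6 genes called and 3 at an unadjusted p under 0.05. The mean *Gstm5* BAF was 0.734 in this Cast × B6 litter and 0.645 in the other one, against 0.635 and 0.649 in the B6 × Cast litters. The litter at 0.734 had HiSeq runs only and the other 3 had a GAIIx run too. Mother, litter and run therefore cannot be told apart here. In N2 embryos limma called 0 of 5 genes, where 1.68% of 3932 were called, and none had an unadjusted p under 0.05. The lowest adjusted p was that of *Gsto1* (0.4659, difference 0.24, SE 0.14). The differences of *Gstz1*, *Gstm1*, *Gstm5* and *Gstm7* lay between -0.22 and 0.04. The other transferases had too few votes to be tested.

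Somite number, which counts the blocks laid down along the trunk and serves as a measure of stage, ran from 42 to 57 in the 147 N2 embryos for which it was known. The relation to somite number was known when the set was chosen, so the count of transferases describes that choice and is not a test. Of 9 transferases 1 passed the threshold, *Gstm7*, where 22% of 10007 genes did and 14.1% rose. Its RPM had a Spearman's rho of 0.26 with somite number over all embryos and 0.39 within lanes, but 0.06 in embryos of B6 mothers (n = 85) against 0.45 in those of F1 mothers (n = 62). Its mean went from 29.8 ± 8.46 RPM at 45 somites or fewer (SD, n = 21) to 30.3 ± 15.0 RPM at 46 to 52 (n = 112) and 38.3 ± 19.8 RPM at 53 or more (n = 14), a change within the spread of each class. *Gstm1* had a rho of 0.00 over all embryos and 0.35 within lanes.

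The mothers' groups differed in sign for other transferases. Under B6 mothers *Gsto1* had a rho of -0.46 and under F1 mothers one of 0.35, and *Gsta4* had -0.35 and 0.24. The table as a whole did the same, with a median rho of -0.15 over all genes under B6 and 0.15 under F1 mothers, and with 32.6% and 87.7% of the called genes positive. Within lanes these were 0.11 and 0.15 for *Gsto1* and -0.23 and 0.12 for *Gsta4*, so the contrary signs of *Gsto1* did not remain once lane was removed. *Gstt1* had a rho of -0.08 under B6 and 0.34 under F1 mothers, and of 0.21 within lanes over all embryos. *Gstz1*, *Gstm5*, *Gstt1*, *Gstt2*, *Gstp1* and *Mgst1* had a rho between -0.03 and 0.11 over all embryos. The BAF of *Gstm7* also moved with stage in the heterozygous embryos, from 0.609 ± 0.0802 (SD, n = 6) at 45 somites or fewer to 0.544 ± 0.0810 (n = 32) at 46 to 52 and 0.442 ± 0.106 (n = 7) at 53 or more, with a rho of -0.46 over 45 embryos and -0.26 within lanes. For *Gstz1* that rho was 0.02 over 71 embryos.

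**Figure D5:**
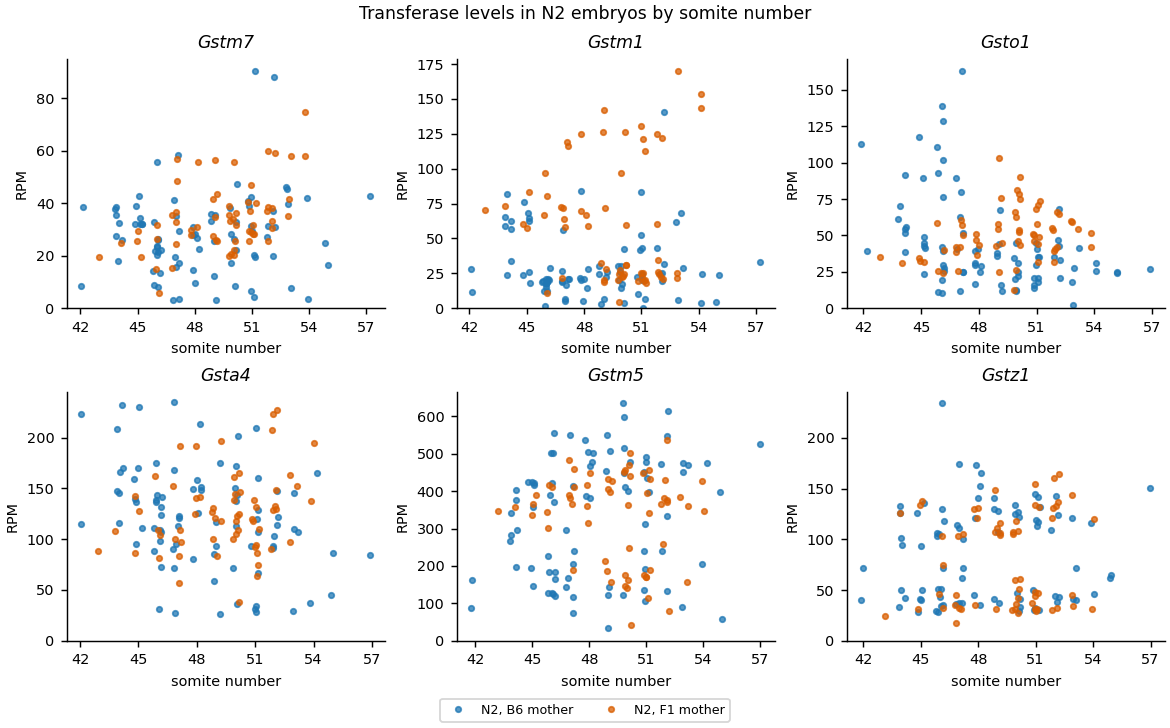
RPM (y axis) of 6 transferase genes against somite number (x axis) in the 147 N2 embryos of known stage, each point 1 embryo, blue for B6 mothers and orange for F1 mothers. *Gstm7* has a rho of 0.26 over all and reaches 90.6 RPM at 46 to 52 somites, *Gsto1* has a rho of -0.46 among embryos of B6 mothers and reaches 163 RPM in the same class, and *Gstz1* keeps 2 bands at every stage.

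Around these enzymes, 62 other genes of glutathione metabolism were read as a list, made of other transferases, MAPEG relatives, genes of glutathione synthesis and turnover, thiol enzymes, conjugate exporters, NRF2 with its textbook targets, and tyrosine breakdown. Allele differences were called for 5 of 31 genes with enough votes (paired test, Bonferroni), near the 18.9% of all genes, 1 towards B6 and 4 towards Cast. *Esd*, which hydrolyses S-formylglutathione, had a BAF of 0.959, and *Mgst3* of 0.301. *Bach1*, a repressor at antioxidant response elements, had 0.195, *Gsr*, which regenerates reduced glutathione, 0.216, and *Cbs*, of the path to cysteine, 0.306. For the genotype at the gene, 8 of 26 passed, near the 29.2% of all genes, 6 of them higher in heterozygous embryos. *Mgst3* had 191 ± 84.5 RPM (SD, n = 67) in heterozygous and 103 ± 47.2 RPM (n = 87) in B6/B6 embryos. *Glo1*, which detoxifies methylglyoxal, had a ratio of 1.73 (rank-sum test, Benjamini-Hochberg-adjusted p = 4.09e-22). *Cbs*, *Bach1* and *Gsr*, the next by p, had ratios of 1.90, 1.66 and 1.72. *Gclm* and *Txnrd1* were the 2 that were lower. *Esd* did not pass despite its BAF of 0.959. It had 186 ± 190 RPM (SD, n = 82) in heterozygous and 173 ± 218 RPM (n = 71) in B6/B6 embryos, a ratio of 1.08, so its level did not follow its BAF.

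With somite number, 5 of 26 genes of the list passed (Spearman, Benjamini-Hochberg), beside 22% of all genes. *Oplah* (rho = 0.38), *Keap1*, which holds NRF2 in check (0.38), and *Gss*, the last enzyme of glutathione synthesis (0.27), rose, and *Lap3* (-0.25) and *Esd* (-0.23) fell. With lane regressed out of the ranks 1 gene of the list passed, and with litter means 0. For the mother's genotype 3 of 26 passed, beside 5.03% of all genes, each higher with an F1 mother. They were *Esd* at 86.8 and 305 RPM under B6 and F1 mothers (Mann-Whitney, Bonferroni-adjusted p = 1.34e-05), *Gstm2*, a neighbour of the mu genes above, at 9.27 and 15.6 RPM (adjusted p = 7.43e-05), and *Gsr* at 19.0 and 36.9 RPM (adjusted p = 0.00766). Within either flowcell, over litter means and with lane as a random block 0 of the 26 passed. Parent-of-origin dependence was called for 0 of 15 genes in F1 and 0 of 12 in N2 embryos (limma), beside 1.67% of 5628 and 1.68% of 3932 genes. The core TGACNNNGC occurred in 22.2% of the 72 promoters of the list.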

How the data were processed

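3SEQ reads of whole E11.5 embryos had been trimmed and aligned by the authors (Bowtie2) against mm9, which is B6, and against a Cast version of it carrying known SNPs, and reads from repetitive positions had been discarded. The authors deposited raw counts of reads per RefSeq gene, without normalization. They also deposited votes per allele, which are expected counts (estimated counts, since a read over several SNPs is divided among them), without a value where a gene had none. Genotype codes came from their hidden Markov model and were read as score values for B6/B6, heterozygous and not called.

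From these, RPM, BAF (B6 votes over B6 and Cast votes, pooled over embryos) and per-embryo values were computed with Python 3.11.15, numpy 2.4.6, pandas 2.3.3 and scipy 1.17.1. Of 168 N2 columns, 8 name no mother and 6 have no genotypes, which leaves 154 embryos. Mother's genotype was tested by the Mann-Whitney U test (Bonferroni-adjusted p under 0.01, mean of at least 5 RPM), with edgeR 4.0.16 after TMM, DESeq2 1.42.0 and limma 3.58.1 voom (lane as a random block) as alternatives. Parent of origin was tested by limma on log2 of B6 over Cast votes with a pseudocount of 0.5, and called at an adjusted p under 0.05. The genotype at the gene used a rank-sum test after lane, sex, somite number and 15 principal components (in place of PEER) were regressed out, somite number used Spearman's correlation, and alleles a paired test with a BAF outside 0.45 to 0.55. Wilson intervals (95%) cover counting error only, and votes are reads without molecular identifiers. Embryos of a litter share a mother and often a lane, so p-values over embryos measure the spread between these embryos only. Positions of genes are those of mm9 (GENCODE), and promoters are from RefSeq.

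The genes and the glutathione list were chosen with earlier results of these data known. All 10 transferases were named in each comparison their votes or reads allowed, and of the list the called genes with the 5 smallest p. *Lap3*, *Txnrd1* and *Gclm* came after these for the genotype at the gene. Each main test, edgeR, DESeq2, limma voom and the exact rank-sum test were also run on simulated data with 200 changed genes. The Mann-Whitney test recovered 64.2% of genes changed by 0.5 on the log2 scale and 100% of those changed by 1. The simulated levels held no differences between lanes or litters. These shares therefore do not carry over to the real contrast of mothers, in which mother and lane were nearly the same split. The alternatives by lane group were added after the data had been seen.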

Additional observations from a re-analysis of the deposited data

Results flagged for a closer look

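The *Gstm7* level of 1 embryo stood apart in each F1 cross. In B6 × Cast the highest embryo had 72.6 RPM and the next 55.2 RPM, a gap of 0.536 of the group's whole range, and in Cast × B6 the highest had 64.4 RPM and the next 42.7 RPM, a gap of 0.687 of the range. These were 2 of 34 groups examined for an embryo far from the others (Dixon's criterion, n = 8), and chance alone gives about 1 in 20. No other transferase had such an embryo in an F1 group.

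Among the 8 N2 columns without a labelled mother, which entered no comparison, 2 held more than 3 reads of a transferase, the limit that a count of 0 allows. The deepest had 1210811 reads on genes, with 399 of *Gstm5*, 140 of *Gsta4*, 131 of *Gstz1* and 86 of *Gstm1*. The next had 17237 reads, with 7 of *Gstm5* and 4 of *Gstz1*.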

How the results depend on the processing

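Of the transferases, 1 passed for the mother's genotype in the Mann-Whitney test, with edgeR, with DESeq2 and with no minimum RPM. With Benjamini-Hochberg adjustment 2 passed (*Gsto1*, adjusted p = 0.00452, besides *Gstm1*). With litter means, the first flowcell, the second flowcell, 46 to 52 somites, TMM scaling, all matched embryos, the lane block, lanes A to I or lanes K to N, 0 passed. In these settings 0 to 13.4% of all genes passed. The share of pairs with the embryo of the F1 mother higher for *Gstm1*, 0.741 over all, was 0.711 to 0.786 with litter means, the first flowcell, 46 to 52 somites, TMM scaling, all matched embryos and lanes A to I, with an adjusted p of 0.0120, 0.0123 and 0.0162 for the 46 to 52 somites, all matched embryos and lanes A to I, but 0.592 in the second flowcell and 0.540 in lanes K to N. The adjusted p of *Gstm1* ran from 2.63e-08 to 1 over 13 alternatives, and in lanes K to N its means were 30.9 (B6 mothers) and 27.5 RPM (F1 mothers). Parent of origin called 0 transferases in every alternative run. The heterozygous over B6/B6 ratio of *Gstm7* turned to 1.04 in lanes A to I that of *Gstt2* to 0.991 and that of *Gstm1* to 0.7395 in lanes J to N, and that of *Gstp1* to 0.988 and 0.525 in these lane sets, and the cause was not tested. For the genotype at the gene, 3 of 9 passed with Bonferroni adjustment (14.1% of all genes), 6 with lane only (without *Gstm7*, 19.7%), 5 with nothing regressed out (without *Gstm7* and *Gsto1*, 12.2%), 5 with B6 mothers only (18.8%) and 4 with F1 mothers only (14% of all genes). For alleles 1 of 8 passed with F1 embryos only (9.36% of all genes) and 4 of 7 with Benjamini-Hochberg adjustment (*Mgst1* too, 31.8%). With somite number, *Gstm1* and *Gstm7* passed with lane regressed out, *Gsta4* and *Gsto1* with B6 mothers only, *Gstm7* and *Gsto1* with F1 mothers only and 0 with litter means. Genotype at the gene, alleles and somite number were part of the choice of the set, so these counts of transferases describe that choice. For the list of 62 genes, allele calls went from 5 of 31 to 8 of 42 with F1 embryos only and to 10 of 31 with Benjamini-Hochberg adjustment. Somite calls went from 5 of 26 to 12 of 26 with B6 mothers only (51.6% of all genes), 9 of 58 with no minimum RPM (12.7%), 3 with TMM scaling (20.9%), 1 with lane regressed out (11.5%) and 0 with litter means (1.74%). Mother calls went from 3 to 6 with Benjamini-Hochberg adjustment or edgeR and to 0 with litter means, either flowcell or the lane block. Of all genes called with somite number, 63.8% were positive under RPM and 46.7% under TMM scaling, 32.6% with B6 mothers only and 87.7% with F1 mothers only. Of those called for the mother, 85.1% were higher with an F1 mother, 64.7% by edgeR, 59.3% by DESeq2 and 61.5% in lanes A to I, but 15.1% of 212 calls in the first flowcell and 100% of 24 in the second. For mother and parent of origin, each transferase in the main test was set beside each alternative. Of the 147 such pairs with a call in neither, 21 changed sign. So did 10 of 30 rho values, and 6 of 60 ratios lay on the other side of 1, whereas 0 of 46 BAF values crossed an equal share. *Gstt1*, *Gstt2* and *Gstp1* had too few votes for allele statements in N2 embryos, and *Gsta4* had only 137. No paired analysis was possible because embryo numbers do not pair embryos between crosses.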
